A study of Macaca mulatta with 20 samples.

Results

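The extracellular metalloproteinases and their inhibitors were followed through the corpus luteum of rhesus macaques in simulated early pregnancy. Their genes were taken by name from the array annotation: matrix metalloproteinases (MMP), ADAM and ADAMTS proteases, tissue inhibitors of metalloproteinases (TIMP) and RECK. This gave 52 genes of the 14132 named on the array, from 103 probe sets, and for each gene the probe set with the highest mean log2 signal over the 20 arrays was used. By role they were 3 collagenases, 2 gelatinases, 3 stromelysins, 2 matrilysins, 5 membrane-type MMPs, 7 other MMPs, 9 ADAMs, 7 ADAMTS proteoglycanases, 3 procollagen N-proteinases, 7 other ADAMTS and 4 inhibitors.

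Messenger RNA was measured on Affymetrix rhesus arrays in 5 groups of 4 corpora lutea from females. The untreated group was collected on luteal day 10 and received no hormone. The other groups received recombinant human chorionic gonadotropin (hCG) into muscle 2 times per day from luteal day 9. They were collected on luteal day 10, 12, 15 or 18, after 1, 3, 6 or 9 days of hCG. The full schedule had 9 rising doses (15 IU at first, 2880 IU at last). Groups collected before day 18 were given only its earlier part. All corpora lutea were taken by laparotomy and snap-frozen. The only untreated group is of day 10, so after that day luteal age, days of hCG and hCG dose cannot be told apart. Whether each corpus luteum is from its own animal is not stated in the labels, and the p-values then reflect no more than the spread among these samples, which may be technical.

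The MMPs are zinc proteases that cleave collagens, gelatins, laminins and proteoglycans. ADAMs are mostly membrane-bound and shed the outer parts of other proteins, while ADAMTS proteases are secreted and process proteoglycans and procollagens. TIMPs block the active site of MMPs and of some ADAM and ADAMTS proteases, and RECK is a membrane-anchored inhibitor. In the corpus luteum these enzymes are known for the remodelling of matrix that goes with the growth of vessels after ovulation and with regression of the gland.

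The tissue label was checked against its markers. STAR, HSD3B2 and INHA, the luteal steroid markers measured (3 of 6 listed), had mean signals of 15918, 6368 and 8000 over the 20 arrays, and all 6 endothelial markers were measured, with summed signals of 5386 to 8762. The 2 B cell markers measured summed to at most 41.8, and none of the 4 T cell markers listed was measured. The macrophage markers measured summed to 827 to 2782, and those of the ovarian surface epithelium to 287 to 979. Median signals of the arrays were 31.6 to 46.4, and 28.7% to 36.5% of probe sets lay under a signal of 16. Replicate 2 of the untreated group, replicate 1 of hCG day 12 and replicate 2 of hCG day 15 stood apart from the other 17 arrays on principal component 3 (8.40% of the variance), with signals of LUM, a collagen-binding proteoglycan, of 558 to 1657 against 7.53 to 152. For the 52 genes, each call that ended without these 3 arrays is named below.

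Signals are linear intensities, each test was made with limma on log2(signal + 16), and the threshold was an adjusted p of 0.05 (Benjamini-Hochberg, over all 52707 probe sets). Differences are on that log2 scale, with standard errors, and folds on that scale understate changes of dim genes. Of the 52 genes, 32 had a mean signal of at least 50 in at least 1 group. The other 20 were dim throughout, with means over all arrays of 0.671 to 37.4. Among these dim genes were all 3 collagenases (MMP1, MMP8 and MMP13), as well as MMP3, MMP10, MMP12 and MMP26, and 13 of them had means under 16 in every group. Levels of different genes are not set against each other, since probe sets differ in brightness for reasons other than RNA.

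Over the 5 groups, 8 of the 52 genes (15.4%) passed the F test, against 4.52% of all probe sets. They were ADAM12, ADAMTS2, ADAMTS5, MMP1, MMP7, MMP10, MMP16 and RECK. At an unadjusted p under 0.05 the shares were 26.9% (14 genes) and 17.1%. Without the 3 arrays that stood apart, the F calls of ADAMTS2, MMP1 and MMP16 ended. TIMP2, which did not pass by F (adjusted p = 0.066), passed in 1 contrast, so that 9 genes passed at least 1 of the 9 tests. The plot of these 9 genes by array shows a fall, late rises, a rise at day 12 and a peak early in treatment.

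**Figure D1:**
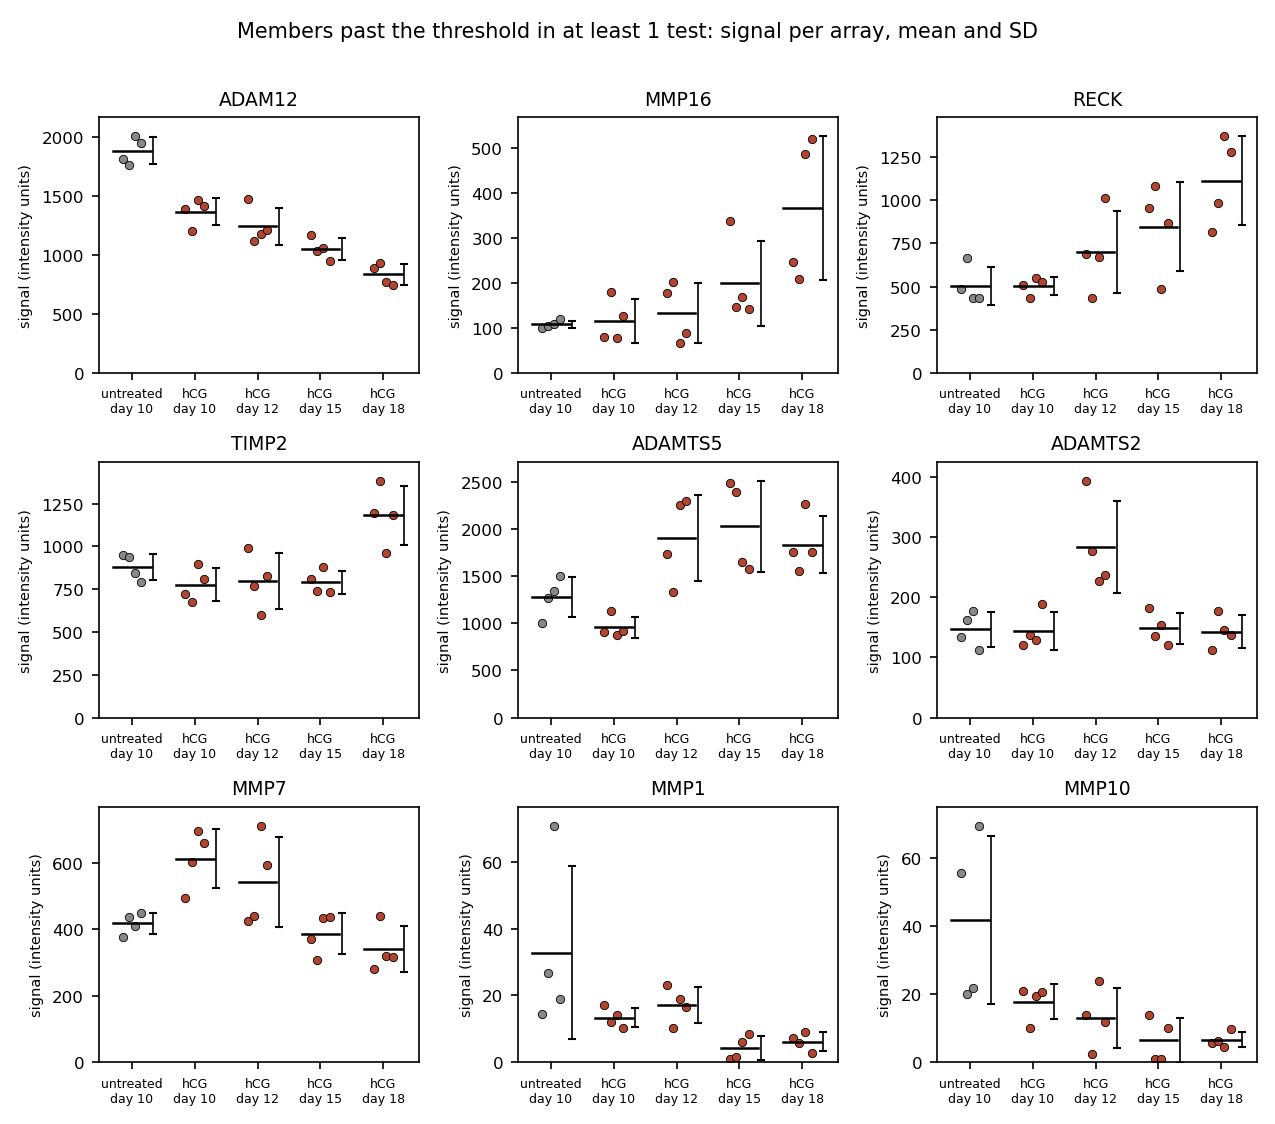
Signal (linear intensity, vertical axis from 0, scaled per gene) of the 9 genes that passed at least 1 test, for the 5 groups on the horizontal axis. Points are arrays (4 per group, grey for untreated and red for hCG), lines are means and bars are SDs. ADAM12 steps down from 1762 to 2005 in the untreated arrays to 746 to 932 on hCG day 18, while MMP16 and RECK are highest on hCG day 18 and ADAMTS2 on hCG day 12.

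ADAM12 fell. It encodes a protease that cleaves binding proteins of insulin-like growth factors and sheds a growth factor related to EGF, and it is abundant in placenta. Its signals were 1815, 1762, 2005 and 1946 in the untreated arrays. They were 1387, 1200, 1460 and 1412 on hCG day 10, 1469, 1114, 1175 and 1210 on day 12, 1168, 1030, 1057 and 944 on day 15, and 887, 932, 769 and 746 on day 18. Every hCG array was below every untreated array, and the means went down with each collection day. By limma, the change from untreated was -0.46 ± 0.12 on hCG day 10 (adjusted p = 0.068), which did not pass. It was -0.60 ± 0.12 on day 12 (adjusted p = 0.027), -0.83 ± 0.12 on day 15 (adjusted p = 0.00096) and -1.16 ± 0.12 on day 18 (adjusted p = 1.1e-05), a 2.24-fold fall.

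Under hCG alone, ADAM12 was lower on day 18 than on day 10 by 1.63-fold (-0.70 ± 0.12, limma adjusted p = 0.001), and no array of one group overlapped the other. None of the steps between neighbouring hCG days passed, with adjusted p of 0.87, 0.98 and 0.56 in order, so neighbouring days in this descent are not separated. The 3 probe sets of ADAM12 went the same way in each of these 4 calls: 3 of 3 passed on day 18 against untreated, and 2 of 3 in the other calls. The day 15 and day 18 calls held without any single array. The day 12 call did not: it ended without untreated replicate 1, 3 or 4 or hCG day 12 replicate 2, 3 or 4 (adjusted p up to 0.10), with the arrays centred on their medians (adjusted p = 0.14), with a pseudocount of 1 (0.10) and in a fit of the 2 groups alone (0.18).

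The other ADAM genes among the 52 did not pass. ADAM8 and ADAM17 were not among these genes. ADAM10, the main constitutive sheddase of Notch and cadherins, was at 2845 ± 297 (SD, n = 4) untreated and 2936 ± 92.6 on day 18, a difference of 0.05 with a 95% interval of -0.31 to 0.41. ADAM9, another membrane sheddase, had means of 2043 ± 337 untreated and 1444 ± 212 on day 18 (-0.49 ± 0.15, limma adjusted p = 0.075). Its second probe set differed by -0.32 (adjusted p = 0.37). ADAM9 did pass on day 18 with a pseudocount of 64, with quantile normalisation, in the upper 50% of probe sets, for the mean over probe sets and without untreated replicate 1. ADAM15, whose protein carries an integrin-binding motif, was at 643 ± 155 untreated and 603 ± 72.5 on day 18. ADAM19 was at 204 ± 48.5 and 154 ± 43.2, and ADAM18, a gene of the sperm surface family, at 62.2 ± 34.1 and 138 ± 104, where 1 array (287) was far above its group. None of these differences passed by limma, with adjusted p of 0.92, 0.32 and 0.31 for ADAM15, ADAM19 and ADAM18.

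Among the membrane-type MMPs, MMP16 rose late. Its protein is anchored in the cell membrane and can activate the gelatinase MMP2. The signals were 99.4, 104, 108 and 119 untreated, and 78.6, 180, 77.1 and 127 on hCG day 10. They were 177, 202, 65.4 and 88.4 on day 12, 338, 146, 169 and 142 on day 15, and 247, 210, 487 and 521 on day 18. The untreated arrays lay close together, the hCG arrays spread widely, and all 4 arrays of day 18 were above every array of either day 10 group.

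On day 18 MMP16 was 2.88-fold above untreated (1.53 ± 0.35, limma adjusted p = 0.017) and 2.84-fold above hCG day 10 (1.51 ± 0.35, adjusted p = 0.015), and all 3 of its probe sets passed in both. On day 15 all arrays were also above the untreated ones, without passing (0.71 ± 0.35, adjusted p = 0.44). The calls rest on the 2 highest arrays of day 18: without replicate 3 or 4 of that group neither passed, nor did the second without hCG day 10 replicate 3 (adjusted p up to 0.065 and 0.057).

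The other membrane-type genes did not pass. MMP14, the best known activator of MMP2, was at 96.4 ± 30.5 untreated and 77.6 ± 30.4 on day 18 (-0.28 ± 0.34, limma adjusted p = 0.79). MMP15, MMP24 and MMP25 had signals between 29.0 and 165 over all arrays.

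RECK and TIMP2, inhibitors of MMPs, were highest on day 18. RECK signals were 488, 664, 432 and 431 untreated and 510, 431, 551 and 528 on hCG day 10. They were 686, 436, 672 and 1013 on day 12, 953, 1083, 486 and 866 on day 15, and 814, 986, 1371 and 1281 on day 18. The array at 436 on day 12 and the array at 486 on day 15 lay within the untreated range, and the other arrays of these days were above it. Only on day 18 were all 4 above both day 10 groups. The rise on day 18 was 2.16-fold over untreated (1.11 ± 0.25, limma adjusted p = 0.015) and 2.13-fold over hCG day 10 (1.09 ± 0.25, adjusted p = 0.014).

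The second probe set of RECK did not share this rise: on day 18 it differed by -0.09 from untreated (adjusted p = 0.87) and by 0.26 from hCG day 10 (adjusted p = 0.47), at mean signals of 503, 540 and 419 in day 18, untreated and hCG day 10. The 2 probe sets therefore give different accounts of the gene. The first call also ended without untreated replicate 3 or hCG day 18 replicate 3 or 4 (adjusted p up to 0.054), and the second without hCG day 18 replicate 3 (0.05).

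TIMP2 inhibits MMPs and also takes part in the activation of MMP2 at the cell surface. Its signals were 951, 937, 843 and 792 untreated, 725, 676, 895 and 812 on hCG day 10, and 1197, 1383, 961 and 1186 on day 18. On days 12 and 15 they lay between 597 and 991, overlapping both earlier groups. TIMP2 was 1.51-fold higher on day 18 than on hCG day 10 (0.59 ± 0.15, limma adjusted p = 0.023). Against untreated the arrays did not overlap either, but the difference did not pass (0.41 ± 0.15, adjusted p = 0.15). The second probe set differed by 0.19 in the first comparison and did not pass (adjusted p = 0.71). The call ended without hCG day 10 replicate 1 or 2 or hCG day 18 replicate 1, 2 or 4 (adjusted p up to 0.074), with a pseudocount of 1 (0.054), in a fit of the 2 groups alone (0.065) and for the mean of both probe sets (0.14).

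TIMP1, a soluble inhibitor of most MMPs, did not pass. Its means were 15385 ± 2496 untreated, 14765 ± 980, 15124 ± 4821 and 15221 ± 2527 on hCG days 10, 12 and 15, and 16497 ± 1906 on day 18. The difference between day 18 and untreated was 0.11, with a 95% interval of -0.28 to 0.49 and a limma adjusted p of 0.87. TIMP3, which binds to matrix and also inhibits ADAM and ADAMTS proteases, varied more between arrays than between groups. It ran from 283 to 1560 within day 12 alone, and differed from untreated on day 18 by 0.08 ± 0.42 (adjusted p = 0.97).

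**Figure D2:**
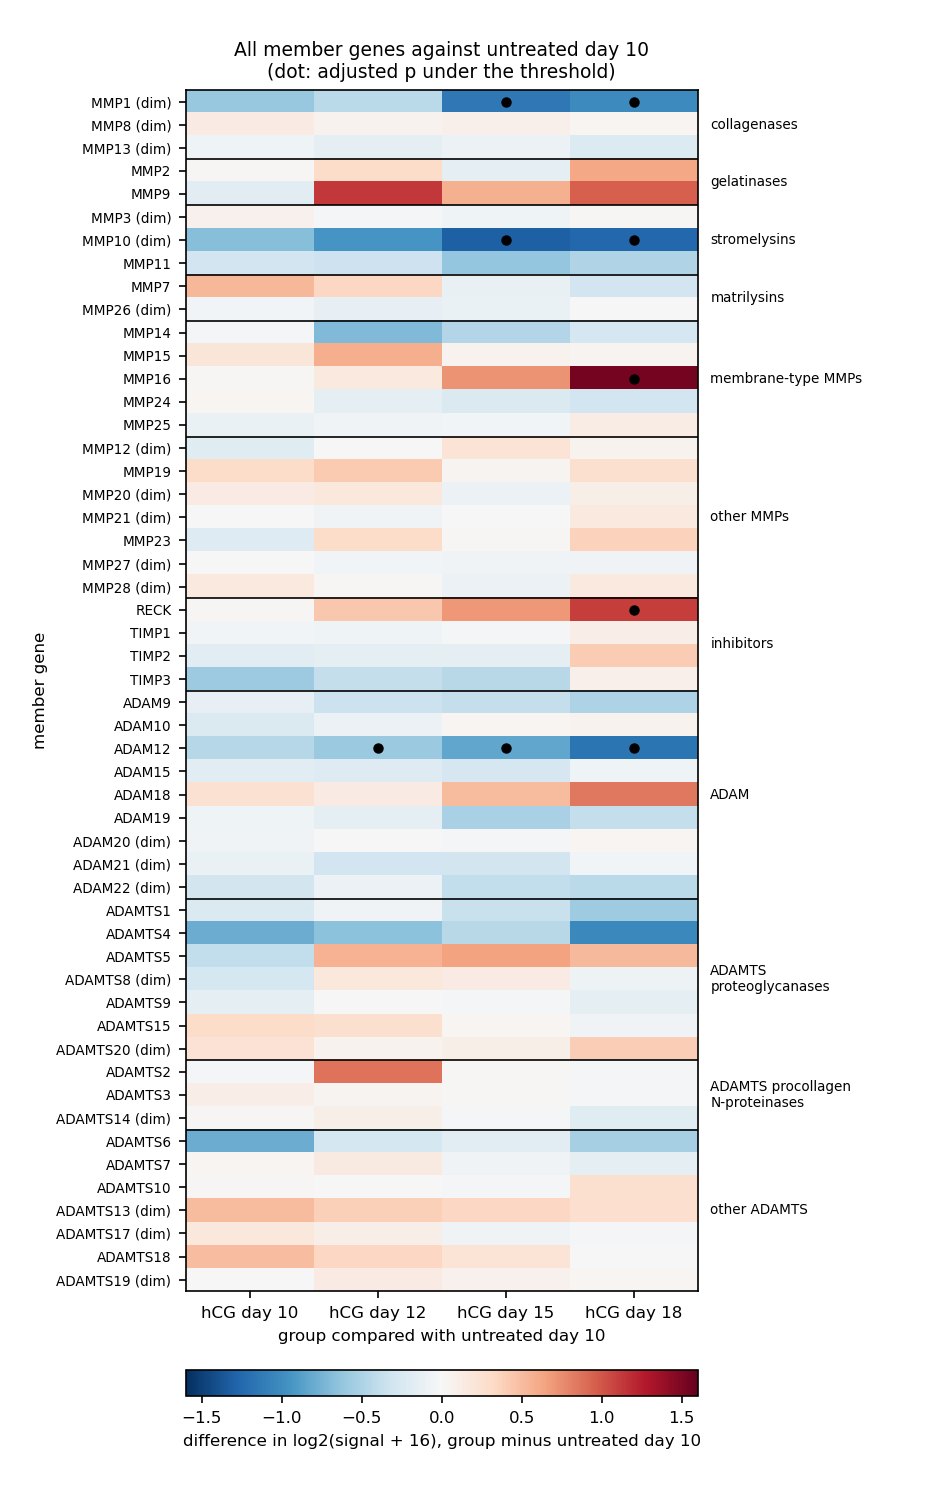
Difference in log2(signal + 16) between each hCG group (columns) and untreated day 10 for all 52 genes (rows, ordered by role), from blue (lower) to red (higher), with dots where the limma adjusted p was under 0.05 and "dim" beside the 20 genes with a mean signal under 50 in every group. Dots lie on ADAM12 from day 12, on MMP1 and MMP10 from day 15, and on MMP16 and RECK on day 18; no dot lies in the column of hCG day 10.

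The gelatinases MMP2 and MMP9, which cleave denatured collagen and the collagen of basement membranes, had higher means on day 18 without passing. MMP2 signals were 1058, 898, 1076 and 795 untreated and 1366, 1750, 1521 and 1263 on day 18. The day 18 arrays were above all untreated and all hCG day 10 arrays, but the difference of 0.62 ± 0.20 (95% interval 0.19 to 1.04) had a limma adjusted p of 0.11. On day 15 the values split into 713 and 548 against 1283 and 1092. Without hCG day 15 replicate 2, MMP2 did pass on day 18 against both untreated and hCG day 10. It also passed against hCG day 10 in a fit of those groups alone, and by F without hCG day 15 replicate 3. MMP9 signals were 275, 87.8, 65.8 and 169 untreated, 356, 251, 421 and 228 on day 12, and 431, 196, 507 and 113 on day 18. They overlapped in each comparison with the untreated group, and the largest difference from it, on day 12, was 1.13 ± 0.47 (adjusted p = 0.41).

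MMP7, or matrilysin, is a small MMP that lacks the hemopexin domain and also cleaves membrane proteins. Its signals were 377, 437, 411 and 448 untreated, and 493, 602, 697 and 661 on hCG day 10. They were 426, 440, 712 and 594 on day 12, 372, 307, 435 and 436 on day 15, and 282, 440, 321 and 317 on day 18. All 4 arrays of hCG day 10 were above the untreated arrays, though this difference did not pass (0.53 ± 0.17, limma adjusted p = 0.19). From hCG day 10 to day 18 MMP7 fell 1.78-fold (-0.83 ± 0.17, adjusted p = 0.0071), with no overlap between arrays, and day 18 was not separated from untreated (-0.30 ± 0.17, adjusted p = 0.44).

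The MMP7 call rests on 1 of the gene's 4 probe sets. The next brightest differed by -0.39 (adjusted p = 0.36), and the other two, at mean signals of 7.50 to 12.9 in these groups, by 0.18 and 0.20. The mean over all 4 probe sets did not pass (adjusted p = 0.56). No single array ended the call.

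**Figure D3:**
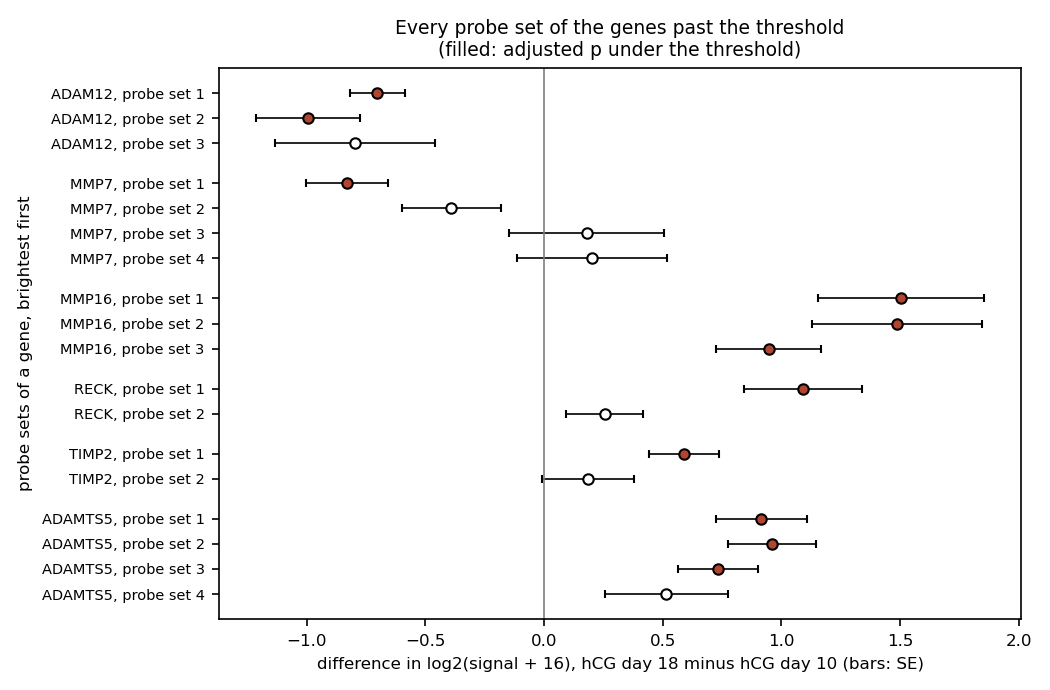
Difference in log2(signal + 16) between hCG day 18 and hCG day 10 (horizontal axis, bars are SEs) for each probe set of the 6 genes that passed in this comparison, brightest probe set first, filled where the limma adjusted p was under 0.05. All 3 probe sets of MMP16 and 3 of 4 of ADAMTS5 are filled, while RECK, TIMP2 and MMP7 have 1 filled probe set each.

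MMP1, an interstitial collagenase, and MMP10, a stromelysin, were lower on days 15 and 18 at very low signals. MMP1 was at 14.4, 26.9, 70.8 and 18.9 untreated, at 0.977, 1.70, 6.14 and 8.53 on day 15, and at 7.17, 5.86, 9.19 and 2.65 on day 18. MMP10 was at 55.5, 20.1, 21.7 and 69.4 untreated, at 13.9, 0.840, 1.12 and 10.0 on day 15, and at 5.77, 6.21, 4.61 and 9.76 on day 18. In both genes every array of days 15 and 18 was below every untreated array and under the 16 added before the logarithm. By limma, both passed on day 15 (adjusted p = 0.018 for MMP1 and 0.021 for MMP10) and on day 18 (0.019 and 0.012).

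The size of these changes is set by the pseudocount. On day 18 the MMP1 difference ranged from -0.43 to -2.05 over the alternatives tried, and that of MMP10 from -0.55 to -2.33. MMP10 did not pass on either day with a pseudocount of 1 (adjusted p = 0.056 and 0.078), and MMP1 did not pass on day 15 with 64 (0.056). Without the 3 arrays that lay apart, MMP1 did not pass on day 15 or 18 (0.11 and 0.053) and MMP10 did not on day 15 (0.054). In a fit of the compared groups alone MMP1 did not pass on either day (0.16 and 0.11), nor MMP10 on day 15 (0.13). Of the 2 probe sets of MMP1, 1 passed, and their mean did not pass on day 15 (0.076). Single arrays also ended calls: hCG day 15 replicate 1 or 2 for MMP1 on day 15 (adjusted p up to 0.062), hCG day 18 replicate 4 for MMP1 on day 18 (0.066), and untreated replicate 1 or 4 or hCG day 15 replicate 2 or 3 for MMP10 on day 15 (up to 0.086).

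MMP1 and MMP10 are neighbours in the RefSeq annotation of the macaque assembly T2T-MMU8v2.0, within a run of 9 consecutive protein-coding genes that also holds MMP7, MMP20, MMP27, MMP8, MMP3, MMP12 and MMP13. Except MMP7, the members of this run were dim on these arrays. MMP11, a stromelysin gene outside it, was at 76.0 ± 33.1 untreated and 47.9 ± 12.8 on day 18 (-0.49 ± 0.28, limma adjusted p = 0.45). MMP19, an MMP of the vessel wall and of wound repair, was at 328 ± 112 and 380 ± 67.1 (0.25 ± 0.23, adjusted p = 0.70).

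The ADAMTS proteoglycanases cleave versican, aggrecan and related proteoglycans, and ADAMTS5 was the one that passed. Its signals were 1004, 1265, 1340 and 1509 untreated, and 913, 1127, 878 and 923 on hCG day 10. They were 1739, 1331, 2263 and 2297 on day 12, 2493, 2401, 1653 and 1574 on day 15, and 1757, 1557, 2263 and 1762 on day 18. From day 12 every array was above all 4 arrays of hCG day 10. ADAMTS5 was 1.93-fold higher on day 12 than on hCG day 10 (0.95 ± 0.19, limma adjusted p = 0.028) and 1.89-fold higher on day 18 (0.92 ± 0.19, adjusted p = 0.0076).

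Against the untreated group ADAMTS5 did not pass on any day. The differences were -0.40 ± 0.19 on hCG day 10 (limma adjusted p = 0.41), 0.55 ± 0.19 on day 12 (0.31), 0.64 ± 0.19 on day 15 (0.13) and 0.52 ± 0.19 on day 18 (0.17). The mean of hCG day 10 was thus below, and the later means above, that of the untreated group. All 4 probe sets of ADAMTS5 went up from hCG day 10 to day 18 and 3 passed, and no single array or other setting ended this call. The day 12 call was less firm: 1 of 4 probe sets passed, and it ended without hCG day 10 replicate 1, 3 or 4 or hCG day 12 replicate 1, 3 or 4 (adjusted p up to 0.12), without the 3 arrays that lay apart (0.075), with a pseudocount of 1 (0.07), in a fit of the 2 groups alone (0.16) and for the mean over probe sets (0.086). With the replicate number as a block it ended too (limma adjusted p = 0.061).

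ADAMTS4 and ADAMTS1, proteoglycanases of the same group, went the other way from untreated to day 18 without passing. ADAMTS4 signals were 1419, 1136, 978 and 1067 untreated, 714, 458, 886 and 625 on hCG day 10, and 466, 583, 688 and 484 on day 18. The arrays of hCG days 10, 12 and 18 were all below the untreated ones, and on day 15 the value of replicate 1 was 1992 against 582 to 691 in the others. The day 18 difference was -1.03 ± 0.30 (limma adjusted p = 0.058). A second, dimmer probe set of ADAMTS4 was lower by -0.64 ± 0.16 on day 18 (adjusted p = 0.027). The gene passed on day 18 in the upper 50% of probe sets, in a fit of the 2 groups alone, for the mean over probe sets and without hCG day 15 replicate 1, and without that array it passed on day 15 too.

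ADAMTS1 signals were 1434, 1972, 1929 and 1859 untreated and 1084, 1232, 1342 and 1151 on day 18. The groups did not overlap, and the difference was -0.57 ± 0.20 (limma adjusted p = 0.13). ADAMTS1 and ADAMTS5 are neighbouring protein-coding genes in the same RefSeq annotation. ADAMTS9, which is also needed for follicle and vessel development, did not pass, with means of 1337 ± 157 untreated and 1208 ± 79.2 on day 18 and a difference of -0.14 (95% interval -0.39 to 0.11).

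**Figure D4:**
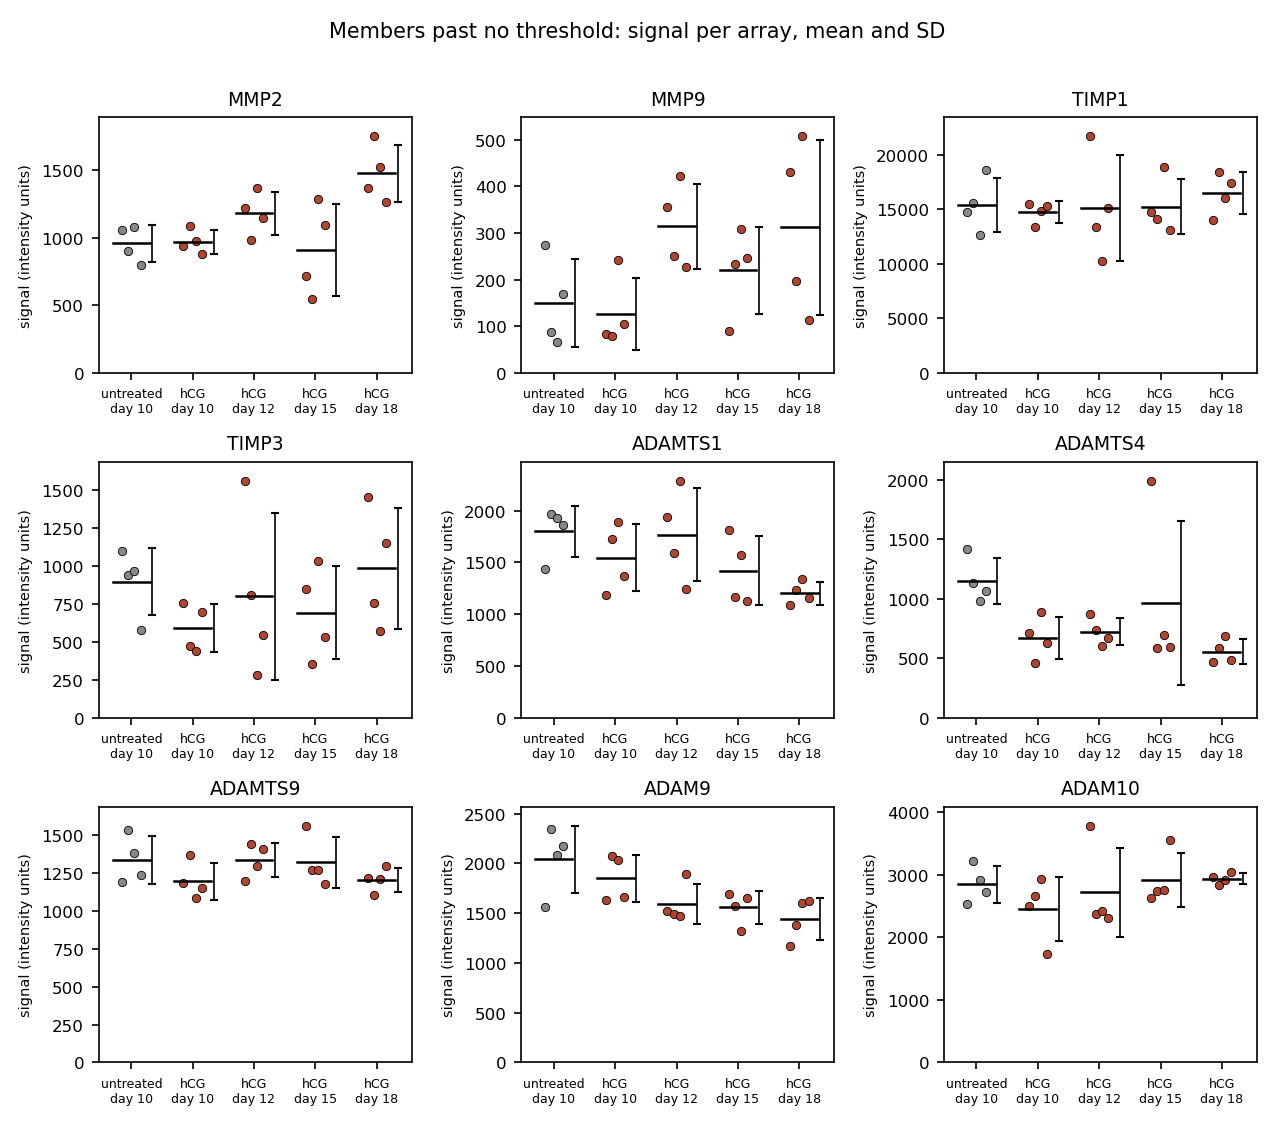
Signal (linear intensity, vertical axis from 0, scaled per gene) of 9 genes that passed no test, by group, with points for arrays, lines for means and bars for SDs. On hCG day 18, MMP2 is above and ADAMTS1 and ADAMTS4 are below all untreated arrays, TIMP1 lies between 10296 and 21712 throughout, and ADAMTS4 has 1 array at 1992 on hCG day 15.

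ADAMTS2 was highest on day 12. It removes the amino-terminal propeptide of procollagens, which lets fibrils form. Its signals were 135, 162, 178 and 112 untreated and 121, 137, 128 and 189 on hCG day 10. They were 393, 277, 227 and 237 on day 12, then 182, 136, 155 and 121 on day 15 and 112, 178, 145 and 137 on day 18. All 4 arrays of day 12 were above the other 16. The rise from hCG day 10 was 1.86-fold (0.89 ± 0.19, limma adjusted p = 0.036), that from untreated did not pass (0.86 ± 0.19, adjusted p = 0.059), and neither did the step down to day 15 (-0.85 ± 0.19, adjusted p = 0.42). The rise from untreated did pass with a pseudocount of 64, with median-centred arrays and with quantile normalisation. It also passed in the upper 50% of probe sets and without hCG day 10 replicate 4.

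Of the 3 probe sets of ADAMTS2, 1 passed and the others differed by 0.44 and 0.20 from hCG day 10 to day 12. The call ended without hCG day 10 replicate 1, 2 or 3, hCG day 12 replicate 1, 2 or 4 or hCG day 18 replicate 3 or 4 (adjusted p up to 0.12), without the 3 arrays that lay apart (0.14), with a pseudocount of 1 (0.088), in a fit of the 2 groups alone (0.23) and for the mean over probe sets (0.22). With the replicate number as a block it ended too (limma adjusted p = 0.07). On day 12 some other stromal values were high as well, though by limma no smooth muscle, pericyte or fibroblast marker passed against untreated or hCG day 10. COL1A1, a chain of collagen I, was at 3498, 1794, 1871 and 2556, with its highest value in replicate 1, where ADAMTS2 was highest too. The summed signal of the smooth muscle and pericyte markers (3 of 5 measured: CNN1, MYH11 and TAGLN, none at 0) was 2860 to 4898 on day 12 against 2196 to 3426 in the other groups. For the fibroblast markers (4 of 5 measured) it was 8465 to 12928 against 6004 to 11700. These sums are mostly the signals of TAGLN and of DCN, with means of 2245 and 7590 over the 20 arrays. Of the fibroblast markers, COL1A1, LUM and DCN differed from untreated on day 12 by 1.03, 0.46 and 0.10, and COL3A1 by -0.52. From hCG day 10 the same 4 markers differed by 0.58, 1.95, 0.31 and 0.25, in that order. The part of these cells in the ADAMTS2 result was not tested, and in whole tissue more cells of a type and more RNA per cell cannot be told apart.

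ADAMTS3 and ADAMTS14, the other N-proteinases, did not pass. ADAMTS3 had signals of 586 to 999 over all arrays, and ADAMTS14 had means under 16 in every group. Among the other ADAMTS genes, ADAMTS6 was at 311, 438, 411 and 460 on hCG day 10 against 523, 954, 647 and 772 untreated, without overlap. That difference, -0.80 ± 0.22, had a limma adjusted p of 0.10.

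The counts per comparison are read against all probe sets. After 1 day of hCG none of the 52 genes passed against untreated by limma, where 0.954% of all probe sets passed, and at an unadjusted p under 0.05 there were 7 (13.5% against 12.4%). On day 12 none was higher (0.157% of all probe sets) and 1 was lower (0.131%). On day 15 none was higher (0.619%) and 3 were lower (0.674%). On day 18 there were 2 higher (1.87%) and 3 lower (2.02%), that is 5 of 52 or 9.62%.

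The median difference of the 52 genes from untreated stayed near 0 on every day: -0.03, -0.00, -0.05 and 0.00 on hCG days 10, 12, 15 and 18, against -0.05, -0.06, -0.05 and -0.03 over all probe sets. The arrays of 10 genes did not overlap between day 18 and untreated (19.2%, against 11.2% of all probe sets). These 10 were the 5 called genes with MMP2, TIMP2 and ADAMTS5 higher and ADAMTS1 and ADAMTS4 lower.

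Under hCG, 2 genes were higher on day 12 than on day 10 (0.102% of all probe sets) and none was lower (0.416%). From day 12 to 15 and from day 15 to 18, none passed, and 0% of all probe sets passed in either step. At an unadjusted p under 0.05 there were 4 genes in each (7.69%), near the 5.13% and 7% of all probe sets. Day 18 against hCG day 10 gave 4 higher (ADAMTS5, MMP16, RECK and TIMP2, against 2.25% of all probe sets) and 2 lower (ADAM12 and MMP7, against 2.95%). In that comparison the arrays of 11 genes did not overlap (21.2%, against 11.5%). The comparisons with one baseline share its 4 arrays. The main probe set is the brightest of its gene, while the percentages over all probe sets include dim ones.

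Markers of luteal and other cells were compared over the same days. The macrophage markers measured (4 of 5: CD14, CD68, MSR1 and MARCO, the last at a mean of 10.5) summed to 1373 to 2782 on day 18, against 827 to 1848 untreated and 1037 to 1226 on hCG day 10, and CD14 passed in the second comparison (0.95, limma adjusted p = 0.049) while none of the 4 passed against untreated. Of the luteal steroid markers, HSD3B2, which makes progesterone, fell on day 15 (-0.97, limma adjusted p = 0.024) and day 18 (-1.83, adjusted p = 4.4e-05) against untreated, and on day 18 against hCG day 10 (-2.14, adjusted p = 6.8e-06), while STAR and INHA did not pass in these comparisons. The summed endothelial markers were 7149 to 8380 on day 18 and 6804 to 8009 untreated. The part of these markers in the day 15 and day 18 results of ADAM12, MMP1, MMP10, MMP16, RECK, TIMP2 and MMP7 was not tested.

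The matrix proteins that these enzymes cleave were followed in a list of 22 genes, of which 19 were measured. On day 18 against untreated 4 of 19 fell (2.02% of all probe sets did) and 1 rose (1.87%). Against hCG day 10, 3 fell (2.95%) and 1 rose (2.25%). The medians over the list were -0.46 and -0.28, against -0.03 and 0.03 over all probe sets. No gene of the list passed in the other contrasts, and 7 passed by F (4.52% of all probe sets). The falls against hCG day 10 were those of BGN (biglycan), LAMB1 and VCAN, and the rise was that of ACAN (aggrecan). Leaving out any of 8 single arrays ended the BGN call (-0.75, limma adjusted p = 0.04), as did 3 other settings. The ACAN call (0.53, limma adjusted p = 0.035) ended without any of 6 single arrays and in 4 other settings, median-centring and quantile normalisation among them.

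VCAN, or versican, a substrate of ADAMTS1, ADAMTS4 and ADAMTS5, was at 3914, 3152, 3054 and 1145 untreated, 4516, 4987, 2317 and 2608 on hCG day 10, and 1195, 606, 667 and 1506 on day 18. It was lower on day 18 than on hCG day 10 in every array (-1.87 ± 0.37, limma adjusted p = 0.0047) and lower than untreated with overlap (-1.46 ± 0.37, adjusted p = 0.031), where 1 untreated array was low. The call against untreated ended without untreated replicate 1, 2 or 3 or hCG day 18 replicate 2 or 3 (adjusted p up to 0.11), without the 3 arrays that lay apart (0.10), with a pseudocount of 1 (0.054) and in a fit of the 2 groups alone (0.10).

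LAMB1, a laminin chain of basement membranes, was at 1363, 1541, 1474 and 927 untreated and 742, 738, 577 and 613 on day 18 (-0.96 ± 0.18, limma adjusted p = 0.0037). COL5A2, a chain of collagen V, was at 5001, 4649, 4360 and 3942 untreated and 2814, 2679, 2323 and 2161 on day 18 (-0.85 ± 0.17, adjusted p = 0.0066). In neither gene did the groups overlap, and no single array ended these calls. FN1, or fibronectin, fell by 0.91 (adjusted p = 0.025), and ACAN, or aggrecan, which was dim, was higher by 0.54 (adjusted p = 0.04). Each of these calls ended without any of 5 single arrays: untreated replicates 1, 2 and 3 and hCG day 18 replicates 1 and 3 for FN1 (up to 0.091), and untreated replicates 3 and 4 and hCG day 18 replicates 1, 2 and 3 for ACAN (up to 0.13). The ACAN call also ended without the 3 arrays that lay apart (0.055), with a pseudocount of 1 (0.061), in a fit of the compared groups alone (0.08) and for the mean over probe sets (0.078). COL1A1 and COL6A3 passed by F alone (adjusted p = 0.016 and 0.039).

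**Figure D5:**
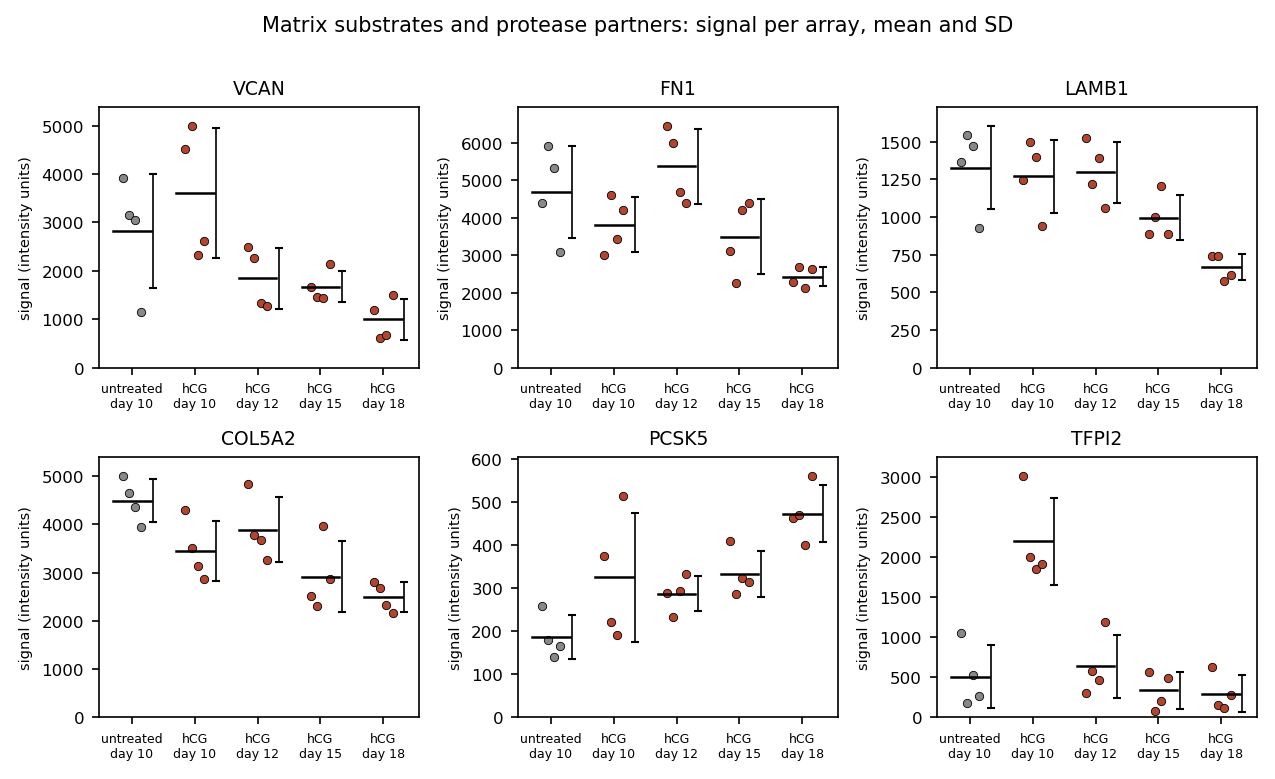
Signal (linear intensity, vertical axis from 0, scaled per gene) by group of 4 matrix genes and of PCSK5 and TFPI2, with points for arrays, lines for means and bars for SDs. VCAN, FN1, LAMB1 and COL5A2 have their lowest means on hCG day 18, PCSK5 has its highest there, and TFPI2 stands out on hCG day 10 at 1854 to 3013.

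Partners of the proteases were taken in 3 lists, to be read against the same shares of all probe sets: 4.52% by F, 1.87% higher on day 18 than untreated and 2.95% lower on day 18 than on hCG day 10. Of 8 plasminogen activation genes measured, from a list of 11, none passed in any contrast, and S100A10, a plasminogen receptor subunit, passed by F (adjusted p = 0.04). Of 10 measured metzincin and ADAMTS-like genes, from a list of 12, 1 rose on day 18 against untreated: PAPLN, or papilin, a matrix protein that shares modules with ADAMTS proteases (0.84 ± 0.21, limma adjusted p = 0.025). That call ended without untreated replicate 2, 3 or 4 or hCG day 18 replicate 1, 2 or 4 (adjusted p up to 0.082), without the 3 arrays that lay apart (0.086) and for the mean over probe sets (0.34 in place of 0.84, adjusted p = 0.30).

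Of 15 measured activators, chaperones and other inhibitors, from a list of 20, 1 rose against untreated and 2 fell against hCG day 10. PCSK5, a convertase that cuts the propeptides of secreted proteins, was at 259, 180, 140 and 164 untreated and 462, 469, 400 and 560 on day 18 (1.30 ± 0.24, limma adjusted p = 0.0035). TFPI2, a Kunitz-type inhibitor of plasmin and other serine proteases, was at 3013, 2003, 1854 and 1916 on hCG day 10 and 623, 153, 117 and 279 on day 18 (-3.09 ± 0.60, adjusted p = 0.004). Its rise from untreated to hCG day 10 did not pass (2.35 ± 0.60, adjusted p = 0.073). PTX3, a pentraxin of the matrix around the oocyte, fell from hCG day 10 to day 18 (-1.64 ± 0.32, limma adjusted p = 0.0039). PCSK5 has 2 probe sets and TFPI2 has 5. Over the alternatives tried the PCSK5 change ranged from 0.70 to 1.46 and the TFPI2 fall from -3.53 to -1.47, and neither call ended.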

How the data were processed

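Biotin-labelled cRNA from TRIzol RNA was hybridised to rhesus arrays. The authors deposited a linear intensity for each probe set on each array, made with Affymetrix GCOS per the submitters' processing notes, without a version. Of 52865 probe sets, 158 controls were left out. Symbols came from the platform annotation: 24956 probe sets carry 1 symbol, 361 several (among them 1 of MMP15, left out) and 27390 none, and 51 of the 52 genes were found by Entrez ID in RefSeq under the same symbol. Other members of these families were not analysed here. Values were used as log2(signal + 16) without further scaling or filter, as the 2% trimmed mean of each array was 200.01 or 200.02. One limma model (version 3.58.1, R 4.3.3) with 5 group means was fitted to all 20 arrays, with eBayes and Benjamini-Hochberg adjustment within each comparison. Tests were the F over the 4 contrasts against untreated, these contrasts, 3 steps between days and day 18 against hCG day 10. The genes and lists were chosen with earlier results of these data known.

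Named are all genes of the families past the threshold in at least 1 test, a set of reference members, up to 6 genes per related list by adjusted p, and, chosen after their values were seen, ADAM15, ADAM18, ADAM19, ADAMTS3, ADAMTS6, BGN, COL6A3 and markers. Alternatives were pseudocounts 1 and 64, median-centring, quantile normalisation, the upper 50% of probe sets, a replicate block, the compared groups alone, the mean over probe sets, and leaving out each array or the 3 that lay apart. The procedure was tested on simulated data. Arrays have no depth, and their number limits the precision. Figures were drawn with matplotlib 3.10.9 in Python 3.11.15.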

Additional observations from a re-analysis of the deposited data

Results flagged for a closer look

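In 170 groups of 4 arrays over 34 genes, the highest or lowest array was compared with the gap to the others, and 9 lay apart by Dixon's test, where chance gives about 1 in 20. ADAM10 had 1 array at 3781 on hCG day 12 (replicate 1, others 2304 to 2420) and 1 at 3549 on hCG day 15 (replicate 4, others 2618 to 2749). ADAM9 was at 1892 in hCG day 12 replicate 4, with the others at 1472 to 1517. ADAMTS4 was at 1992 in hCG day 15 replicate 1, with the others at 582 to 691; without that array its F test passed (limma adjusted p = 0.016). MMP10 was low, at 10.2, in hCG day 10 replicate 2, with the others at 19.5 to 20.8. MMP19 was at 491 in hCG day 10 replicate 3, with the others at 351 to 367.

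Among the related genes, BGN, or biglycan, was at 836 in hCG day 12 replicate 1 (others 500 to 542), PAPLN at 254 in hCG day 15 replicate 1 (others 167 to 179), and TFPI2 at 3013 in hCG day 10 replicate 1 (others 1854 to 2003).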

How the results depend on the processing

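None of the 17 called values of the 52 genes changed sign over the 29 alternatives, except that MMP1 and MMP10 are not among the upper 50% of probe sets and had no value there. Each alternative used the main probe set or the mean over probe sets. Taken singly, 1 of 2 probe sets of RECK had the sign of the call on day 18 against untreated. For MMP7 on day 18 against hCG day 10 it was 2 of 4. The counts of genes past the threshold moved as follows. By F (8), 4 passed with a pseudocount of 1 and 5 without the 3 arrays that lay apart. On hCG day 10 against untreated (0), 1 passed with a pseudocount of 64, with quantile normalisation or in the upper 50% of probe sets (ADAM12), and 1 with the mean over probe sets (ADAMTS6). On day 12 against untreated (1), 0 passed with a pseudocount of 1 or in a fit of the compared groups alone, and 2 with a pseudocount of 64, quantile normalisation or the upper 50%. On day 15 against untreated (3), 1 passed in the upper 50%, in the groups alone and without the 3 arrays. On day 12 against hCG day 10 (2), 0 passed with a pseudocount of 1, in the groups alone, without the 3 arrays and with the mean over probe sets.

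Leaving out single arrays gave 4 to 9 genes by F, with 4 without hCG day 18 replicate 3 or 4 and 5 without untreated replicate 1 or 4 or hCG day 10 replicate 3 or 4. It gave 0 to 1 on hCG day 10 (1 without hCG day 12 replicate 1), 0 to 2 on day 12 (2 without hCG day 10 replicate 4), 1 to 3 on day 15 (1 without hCG day 15 replicate 2), 2 to 6 on day 18 against untreated (3 and 2 without hCG day 18 replicates 3 and 4), and 0 to 2 on day 12 against hCG day 10.

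The same replicate numbers occur in every group, and the labels do not say that they pair the arrays. Over 40 pairs of the same number, deviations from the group means correlated at -0.28 to 0.36, and 14 were over 0.1. Their median was 0.03, against -0.02 for pairs of unlike numbers. Replicate 1 correlated at 0.12 to 0.31 between all groups other than hCG day 12, while replicates 2, 3 and 4 each gave both signs. These correlations do not settle whether the numbers pair the arrays. With the replicate number as a block, 0 genes passed on day 12 against hCG day 10 (ADAMTS2 0.07 and ADAMTS5 0.061), 6 by F (MMP16 and RECK ended) and 6 on day 18 against untreated (ADAMTS4 added). Signals under 16 do not resolve the size of a change.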
